A study of Mus musculus with 6 samples.

Results

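Aminoacyl-tRNA synthetases are the enzymes that join each amino acid to its tRNA, and their genes were followed here in Met-1 TripZ-200c cells with and without restoration of miR-200c. The members are 36 named genes, found by symbol in a deposited table of 43548 gene identifiers, and all 36 were listed and expressed highly enough to be tested. They were divided by name into 20 cytosolic enzymes and 16 mitochondrial enzymes, whose symbols end in 2. Qars was listed under 2 identifiers, and the more highly expressed of them was used.

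Met-1 cells are a mammary carcinoma line from an FVB/nJ mouse that carried the MMTV-PyMT transgene, and the TripZ-200c derivative was transduced with a lentivirus from which doxycycline (Dox) switches on the miR-200c precursor and a red fluorescent protein. All libraries came from a single sorted clone with this vector. In one group (3 libraries, here called no Dox) the cells received vehicle, and in the other (3 libraries, here called Dox) they received 1 µg/mL Dox, in each case for 48 hours. Cells with the empty vector were not analysed here. Effects of the antibiotic itself, of the fluorescent protein and of the induced miR-200c therefore cannot be told apart in these libraries. In the paper, Dox did not lower Zeb1, a target of miR-200c, or raise E-cadherin in empty-vector cells. The paper gives no synthetase values for those cells. Dox binds bacterial ribosomes and can also slow translation in mitochondria. The labels do not say whether the libraries of a group came from separate cultures, so p-values measure the spread between these samples, which may be technical.

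Each synthetase recognises a single amino acid and the tRNAs that carry it, and the charged tRNAs then deliver the amino acids to the ribosome. Mammalian cells keep separate sets for the cytosol and for the mitochondrion, both encoded in the nucleus, although a few enzymes, such as those for glycine and lysine, serve both compartments from the same gene. Several cytosolic enzymes are held together in a multi-synthetase complex by scaffold proteins. When amino acids are short, the kinase GCN2 senses uncharged tRNA and raises translation of the transcription factor ATF4, whose known targets include genes for synthetases, amino acid transporters and amino acid synthesis.

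Expression was given as FPKM, the fragments on a gene corrected for transcript length and for how many reads each library mapped, so levels can be compared between genes. The deposited values hold no read counts and the absolute depth is unknown. Relative depth, estimated from the smallest values above 0, ran from 0.914 to 1.48 with the first no Dox library set to 1. Of 12879 genes tested, 7.06% were higher and 7.97% were lower with Dox at an adjusted p under 0.05. Induction was visible in the genes that mark it. Zeb1 and Zeb2, repressors of epithelial genes and targets of miR-200c, changed by -0.98 and -1.81 on the log2 scale, both past the threshold, and the epithelial surface gene Epcam rose from between 0.0844 and 0.161 FPKM to between 3.88 and 4.31 FPKM. Cdh1, which encodes E-cadherin, was below the expression filter, at 0.0419 to 0.0776 FPKM without Dox and 0.554 to 1.24 FPKM with Dox. The cells were poor in the usual keratins of mammary epithelium, since Krt8 and Krt14 were below 1 FPKM in every library and Krt5 was listed at 0. Krt18 was expressed, at 91.2 to 96.4 FPKM without Dox and 364 to 400 FPKM with Dox. The leukocyte marker Cd3e and the adipocyte markers Adipoq and Plin1 were listed at 0, and Ptprc, Itgam, Pecam1 and Kdr were below 1 FPKM. Other genes of the same marker lists were detected, Cd68 at 6.31 to 11.3 FPKM, the endothelial Cdh5 at 3.95 to 4.66 FPKM and the adipocyte gene Fabp4 at 5.09 to 13.9 FPKM. Fabp4 was lower with Dox (log2 fold change -0.91, adjusted p = 0.0177), and its part in any result was not tested.

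Across the family, 3 of 36 synthetase genes rose with Dox, 0 fell and 33 did not pass the test. The 3 that rose, Iars, Vars and Sars, belong to the 20 cytosolic genes, of which they are 15.0%. Over the whole family their share was 8.33%, close to the 7.06% of all genes tested that rose. At an unadjusted p under 0.05 there were 11 synthetase genes higher and 0 lower, against 14.5% and 14.7% of all genes tested. All Dox values lay above all no Dox values in 12 of 36 genes and below them in 1, and the corresponding shares among all genes tested were 17.4% and 17.6%. The fitted change was above 0 in 30 of 36 genes, with a median log2 fold change of 0.10, while it was above 0 in 50.8% of all genes tested, with a median of 0.004. Most of these changes were too small to pass against the spread between libraries.

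**Figure D1:**
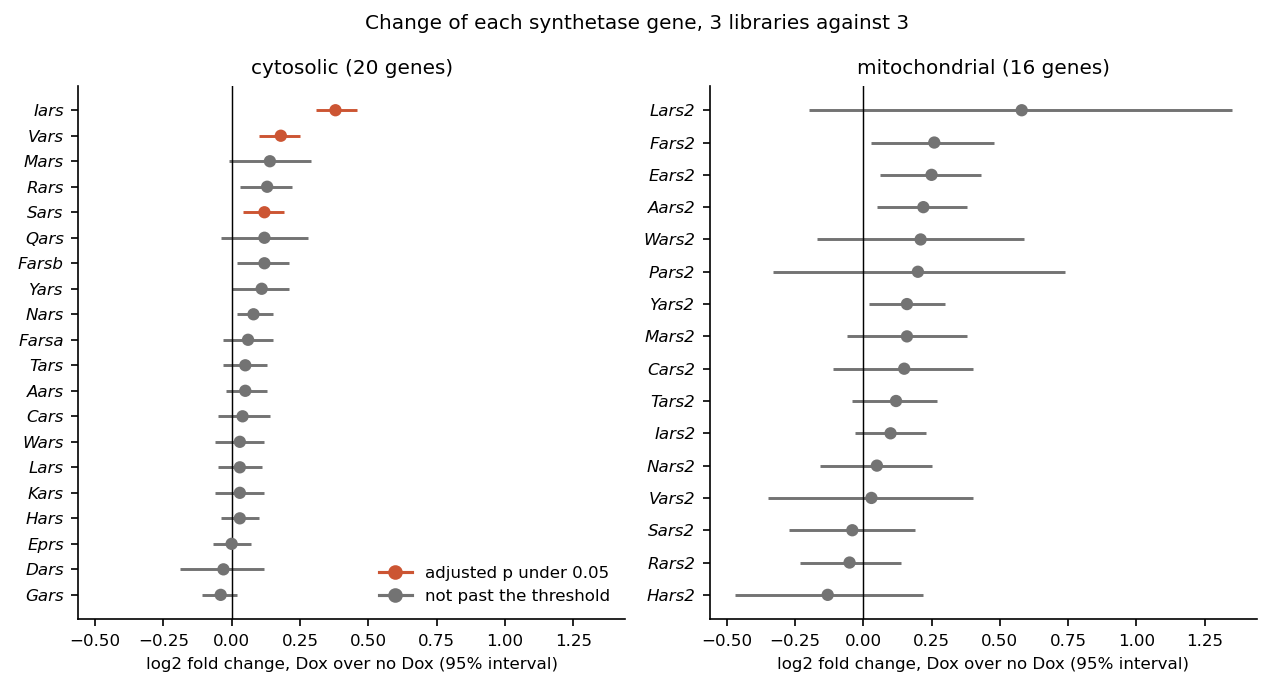
Each point is the log2 fold change of 1 synthetase gene (Dox over no Dox, 3 libraries against 3, x axis) and each line its 95% interval from limma, with the 20 cytosolic genes on the left and the 16 mitochondrial genes on the right. Iars, Vars and Sars are past the threshold, and the intervals of the mitochondrial genes are mostly wider, widest for Lars2.

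Iars, which charges isoleucine tRNA in the cytosol and sits in the multi-synthetase complex, showed the clearest change of the family. It is on mouse chromosome 13 (GRCm38, chr13:49682100-49734267, plus strand). Its levels were 83.9, 82.8 and 83.1 FPKM in the no Dox libraries and 108, 108 and 110 FPKM in the Dox libraries. The groups were far apart relative to the spread within them. The gene rose 1.30-fold, with a log2 fold change of 0.38 (SE 0.0321, adjusted p = 5.59e-04), and the 95% interval of the change ran from 23.7% to 37.4%. The change passed the threshold in 15 of 15 alternative analyses. Of the longest Iars transcript, 49.9% is at least 95% identical to a pseudogene, Gm4849, so short reads could have been divided between them. Gm4849 measured 19.6, 20.5 and 21.4 FPKM in the no Dox libraries and 22.2, 23.6 and 21.6 FPKM in the Dox libraries (log2 fold change 0.13, adjusted p = 0.214), a smaller difference than that of Iars.

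Vars, the cytosolic valine enzyme, rose by a smaller amount. It lies on chromosome 17 (chr17:35000987-35016322, plus strand). Its levels were 189, 191 and 184 FPKM without Dox and 207, 216 and 215 FPKM with Dox. The lowest Dox library was above the highest no Dox library. The log2 fold change was 0.18 (SE 0.0326, adjusted p = 0.0134, interval 7.08% to 19.1%). The call was lost without the third Dox library (adjusted p = 0.0574) and when the fit had no variance trend (adjusted p = 0.0553).

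Sars, which charges serine tRNA and also starts the path to selenocysteine, was the most highly expressed member. It is on chromosome 3 (chr3:108424865-108445209, minus strand). Its levels were 349, 347 and 369 FPKM without Dox and 382, 386 and 386 FPKM with Dox. The groups did not overlap, but the third no Dox library lay nearer to the Dox libraries than the other two. The log2 fold change was 0.12 (SE 0.0317), and the adjusted p of 0.0498 was just under the threshold. It passed in 6 of 15 alternative analyses, with adjusted p between 0.0283 and 0.152. Leaving out a library gave 0.140 or 0.144 without the first or second no Dox library, and 0.103, 0.116 or 0.140 without Dox libraries 1, 2 or 3.

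**Figure D2:**
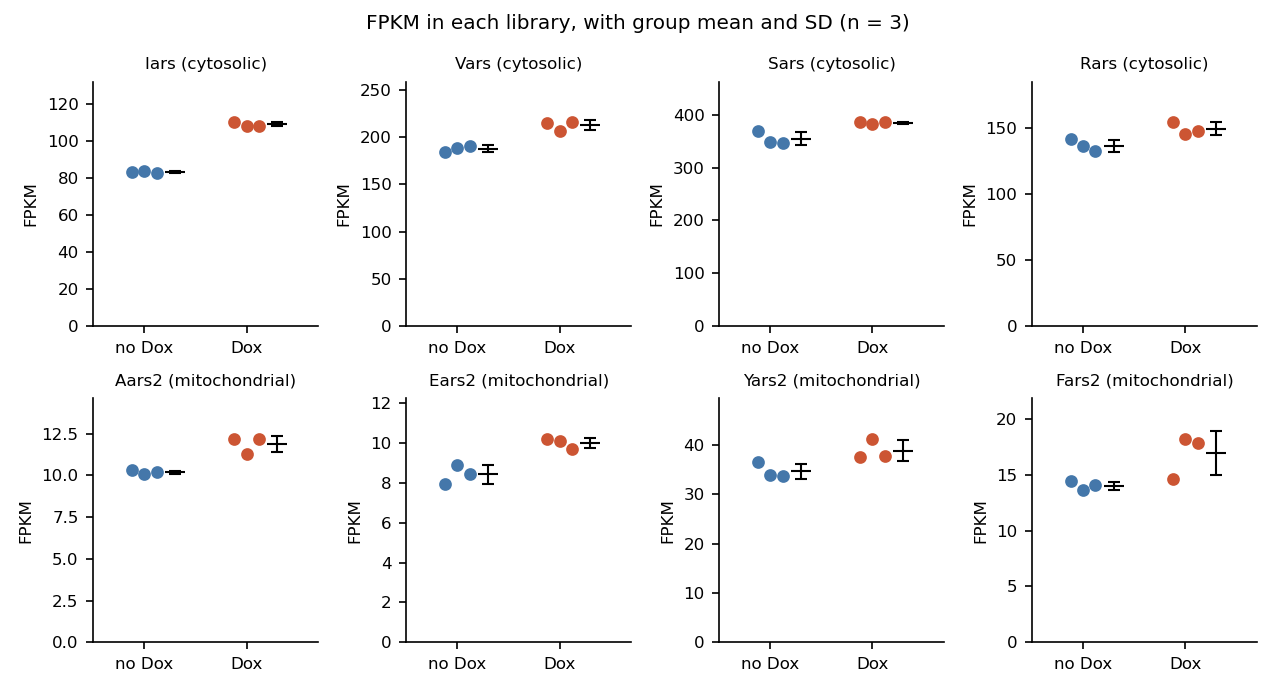
FPKM in each library (y axes from 0) for the 3 genes past the threshold, Iars, Vars and Sars, for Rars, the cytosolic gene nearest to the threshold, and for Aars2, Ears2, Yars2 and Fars2, the mitochondrial genes nearest to it. Points are libraries and the black marks are the group mean and SD (n = 3). In all 8 genes every Dox library lies above every no Dox library, by a wide margin in Iars and by a narrow one in Fars2.

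The 17 other cytosolic genes had log2 fold changes from -0.04 to 0.14, with adjusted p from 0.0824 to 0.997. Rars, the arginine enzyme of the complex, was nearest to the threshold. It measured 136, 132 and 141 FPKM without Dox and 145, 147 and 154 FPKM with Dox, so the groups did not overlap (log2 fold change 0.13, adjusted p = 0.0824). The groups also did not overlap for Nars, Farsb and Yars, which charge asparagine, phenylalanine and tyrosine tRNA, with log2 fold changes of 0.08, 0.12 and 0.11 and adjusted p of 0.101, 0.103 and 0.160. Gars, the glycine enzyme, was the only member in which all Dox values lay below all no Dox values. It measured 215, 214 and 210 FPKM without Dox and 207, 207 and 206 FPKM with Dox, a difference of -0.04 on the log2 scale that did not pass (adjusted p = 0.351).

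Within the multi-synthetase complex, 1 of 8 genes was called, Iars (12.5%, against 7.06% of all genes tested that rose). The median log2 fold change of the 8 was 0.08. Besides Iars and Rars, the values were 0.14 for Mars (methionine, adjusted p = 0.188), 0.12 for Qars (glutamine, adjusted p = 0.291), and 0.03 for both Kars (lysine) and Lars (leucine). Dars (aspartate) was at -0.03. Eprs, which joins the glutamate and proline enzymes in a single protein, measured 155, 155 and 159 FPKM without Dox and 157, 156 and 156 FPKM with Dox. Its log2 fold change of -0.00 had a 95% interval of -4.69% to 4.89%. In the 12 cytosolic enzymes outside the complex, 2 were called (16.7%) and the median was 0.06. The remaining ones were at 0.06 for Farsa, the other subunit of the phenylalanine enzyme, 0.05 for both Aars (alanine) and Tars (threonine), 0.04 for Cars (cysteine) and 0.03 for both Hars (histidine) and Wars (tryptophan). Hars and Hars2 overlap head to head on opposite strands, and Mars overlaps Ddit3, which was at -0.17 (adjusted p = 0.0629). Whether the authors' expression estimates used the strand of the reads is not given in the sources used here, so values of overlapping genes are less certain. In the annotation 17 of the 36 members overlap a gene on the opposite strand, among them Sars, Farsb, Yars, Ears2 and Fars2.

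None of the 16 mitochondrial genes passed the test in the limma analysis. An unadjusted p under 0.05 was found in 4 of them, all with higher values under Dox. Among all genes tested, 14.5% were higher at that p. The log2 fold changes of the 16 ran from -0.13 to 0.58 with a median of 0.16, against 0.06 for the cytosolic genes. In 5 of 16 the groups did not overlap, all with the Dox libraries higher, against 17.4% of all genes tested. Aars2, the alanine enzyme, measured 10.1, 10.2 and 10.3 FPKM without Dox and 11.3, 12.2 and 12.2 FPKM with Dox (log2 fold change 0.22, adjusted p = 0.0832). Ears2, the glutamate enzyme, measured 8.86, 8.43 and 7.95 FPKM without Dox and 10.1, 9.71 and 10.2 FPKM with Dox (0.25, adjusted p = 0.0862). These 2 genes came as close to the threshold as Rars did, with larger fitted changes and larger errors.

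Yars2, the tyrosine enzyme, measured 34.0, 33.7 and 36.5 FPKM without Dox and 41.3, 37.9 and 37.5 FPKM with Dox (log2 fold change 0.16, adjusted p = 0.119). Fars2, the phenylalanine enzyme, measured 13.6, 14.1 and 14.4 FPKM without Dox and 18.2, 17.8 and 14.6 FPKM with Dox. The third Dox library was level with the no Dox libraries, and the log2 fold change of 0.26 had an adjusted p of 0.124. Without that library the adjusted p was 0.0384. Mars2, the methionine enzyme, was the least expressed member, at 5.47, 5.27 and 5.44 FPKM without Dox and 6.11, 6.18 and 5.88 FPKM with Dox (0.16, adjusted p = 0.305).

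The other mitochondrial genes had overlapping groups. Their log2 fold changes were 0.21 for Wars2, 0.20 for Pars2, 0.15 for Cars2, 0.12 for Tars2, 0.10 for Iars2, 0.05 for Nars2, 0.03 for Vars2, -0.04 for Sars2, -0.05 for Rars2 and -0.13 for Hars2. These intervals were wide. For Pars2, the proline enzyme, the 95% interval was -20.3% to 66.6%, and for Vars2, the valine enzyme, it was -21.3% to 32.0%. The precision was typically lower in this compartment, with a median SE of 0.0944 on the log2 scale against 0.0368 for the cytosolic genes. The median coefficient of variation within groups was 7.48% against 2.54%. The SE ranges overlapped, at 0.0552 to 0.329 for the mitochondrial genes and 0.0275 to 0.0671 for the cytosolic ones. A log2 fold change of 0.12, as in Sars, is little more than the median SE of these genes. Of the longest Iars2 transcript, 37.2% is shared with Rab3gap2 on the opposite strand.

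Lars2, the mitochondrial leucine enzyme, had the largest fitted change and by far the largest spread. It measured 54.9, 90.6 and 68.4 FPKM without Dox and 166, 66.1 and 103 FPKM with Dox. The second Dox library was below 2 of the no Dox libraries, so the groups overlapped. The log2 fold change was 0.58 (SE 0.329, adjusted p = 0.302), with a 95% interval of -12.9% to 155%. Leaving out each library in turn moved it between 0.24 and 0.91.

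The libraries ranked for Lars2 as they did for several non-coding transcripts, which were looked up after the Lars2 values had been seen. From high to low the order was Dox 1, Dox 3, no Dox 2, no Dox 3, Dox 2 and no Dox 1, and the same order was found for 3 of the 4 transcripts looked up, Rn7sk, Rmrp and Yam1. Rpph1, the RNA of RNase P, shared the first 3 places but not the rest, at 7.03, 45.8 and 5.51 FPKM without Dox and 78.7, 11.3 and 66.4 FPKM with Dox. Rn7sk, the RNA of the 7SK particle that restrains transcription elongation, measured 38.3, 77.5 and 57.5 FPKM without Dox and 143, 42.2 and 101 FPKM with Dox. Rmrp, the RNA of the RNase MRP particle, measured 9.10, 74.3 and 13.5 FPKM without Dox and 177, 9.86 and 98.0 FPKM with Dox. The long non-coding RNA Yam1 measured 1072, 2035 and 1333 FPKM without Dox and 4767, 1195 and 2759.9 FPKM with Dox. The first and the third Dox library and the second no Dox library were the highest in Lars2 and in all 4 transcripts, and the part of this shared pattern in the Lars2 values was not tested. None of the 37 genes encoded in the mitochondrial genome itself can be compared with them, because all were listed at 0.

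**Figure D3:**
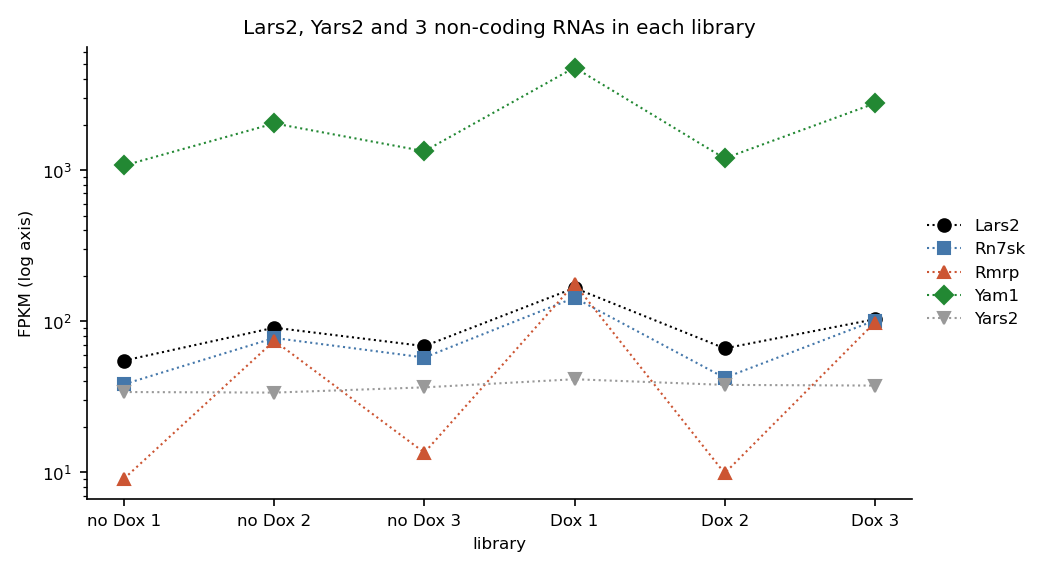
FPKM (log axis) of Lars2, of the non-coding RNAs Rn7sk, Rmrp and Yam1, and of Yars2 for comparison in each of the 6 libraries (x axis); dotted lines only join the points of a gene. Lars2, Rn7sk, Rmrp and Yam1 are highest in Dox library 1 and lowest in no Dox library 1, while Yars2 stays between 33.7 and 41.3 FPKM.

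Cytosolic synthetases were expressed at much higher levels than mitochondrial ones. Mean levels over the 6 libraries ran from 62.9 FPKM for Dars to 370 FPKM for Sars among the cytosolic genes, with a median of 146 FPKM. Among the mitochondrial genes they ran from 5.73 FPKM for Mars2 to 91.5 FPKM for Lars2, followed by 36.8 FPKM for Yars2, with a median of 13.3 FPKM. Ranked among all genes tested, the cytosolic genes lay between the 78.0 and 97.7 percentiles, and the mitochondrial genes between the 19.8 and 85.6 percentiles. The summed level of the cytosolic genes was 3101, 3086 and 3156 FPKM without Dox and 3261, 3299 and 3310.1 FPKM with Dox, so each Dox library was above each no Dox library. The sum of all 16 mitochondrial genes was 284, 319 and 298 FPKM without Dox and 410, 319 and 342 FPKM with Dox, so the second libraries of the groups were level. Lars2 was left out of a second sum after its spread had been seen, and this sum was 229, 229 and 230 FPKM without Dox and 244, 253 and 238 FPKM with Dox, with no overlap. The cytosolic sum was 10.9, 9.67 and 10.6 times the sum of all mitochondrial genes without Dox and 7.96, 10.3 and 9.69 times it with Dox. Without Lars2 it was 13.5, 13.5 and 13.7 times without Dox and 13.4, 13.0 and 13.9 times with Dox, and both ratios overlapped between the groups.

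Enzymes for the same amino acid could be set side by side in 16 pairs, with Eprs used for both glutamate and proline. The cytosolic enzyme was the higher one on average in every pair, by a ratio of mean levels from 1.18 for Lars over Lars2 to 33.2 for Sars over Sars2, with a median of 12.6. The ratio overlapped between the groups in 13 of 16 pairs. In the isoleucine pair, Iars over Iars2 was 2.76, 2.61 and 2.83 without Dox and 3.42, 3.18 and 3.41 with Dox, the only pair in which the ratio was higher in every Dox library. In the alanine pair, Aars over Aars2 was 20.5, 20.8 and 20.6 without Dox and 19.5, 17.5 and 18.4 with Dox. In the glutamate pair, Eprs over Ears2 was 17.5, 18.4 and 20.0 without Dox and 15.6, 16.1 and 15.3 with Dox. In these last pairs every Dox ratio was below every no Dox ratio. The ratios are given as values and were not tested.

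**Figure D4:**
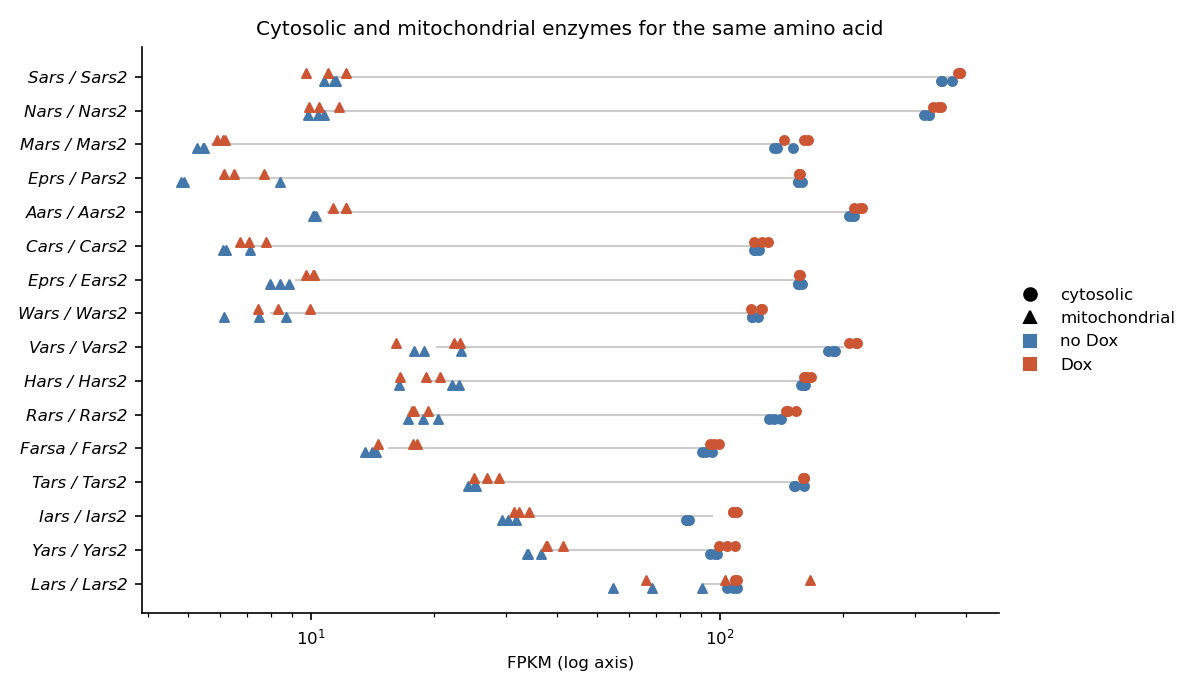
FPKM (log axis) of the cytosolic enzyme (circles) and the mitochondrial enzyme (triangles) for each of 16 amino acids in the 3 no Dox libraries (blue) and the 3 Dox libraries (orange), with grey lines joining the means of each pair; pairs are ordered by their ratio of mean levels, from 1.18 at the bottom to 33.2 at the top. The circles stand to the right of the triangles in every pair except leucine, where the libraries of Lars and Lars2 overlap.

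Synthetases fall into 2 structural classes that differ in the fold of the catalytic domain and attach the amino acid to different hydroxyl groups of the tRNA. In class I, 2 of 18 genes were called, Iars and Vars (11.1%, against 7.06% of all genes tested that rose). Both belong to the same subgroup for branched amino acids as Lars, which was not called (0.03, adjusted p = 0.635). The median log2 fold change of class I was 0.13. In class II, 1 of 17 was called (Sars, 5.88%), with a median of 0.05. Eprs, which holds a domain of each class, was counted in neither. Of 12 cytosolic synthetases listed as targets of ATF4, 2 were called (Iars and Sars, 16.7%), and the median of the 12 was 0.05.

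The core of the C/EBP-ATF response element, the letters TGATGNAA to which ATF4 binds with a C/EBP partner, was searched on both strands from 250 bases before to 50 bases after each gene's start, with promoter sequences from RefSeq (GRCm38.p6). Of the 36 members, 27 could be matched. Vars was not among them, and Sars was, but its promoter did not hold the letters. A match was found in 5 of the 27 genes, Iars, Yars, Tars, Aars and Gars, or 18.5%, against 3.97% of all 32851 promoters. With the stricter letters TGATGCAA there were 4 genes, without Gars, against 0.895% of all promoters. These 5 were cytosolic, as were 13 of the 27 genes searched. Sequences around the matches of 4 of these genes are printed because Iars, the member with the clearest change, holds the same element as genes that did not pass the test. Each is 30 bases on the strand of its gene, 5′ to 3′, with the match in capitals, which reads TTGCATCA or TTTCATCA where the element is on the opposite strand.
Iars, chr13:49682126-49682155, plus strand: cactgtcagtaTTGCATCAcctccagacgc
Yars, chr4:129189895-129189924, plus strand: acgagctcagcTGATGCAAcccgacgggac
Tars, chr15:11399655-11399684, minus strand: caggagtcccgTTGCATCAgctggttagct
Gars, chr6:55037960-55037989, plus strand: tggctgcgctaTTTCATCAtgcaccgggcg
The 5 genes with the element had different values in the comparison, with log2 fold changes of 0.38 for Iars, 0.11 for Yars, 0.05 for Tars and Aars and -0.04 for Gars. The letters CACGTG, called an E-box, were also searched. They were in 5 of the 27 genes, Aars, Ears2, Farsb, Iars and Tars (18.5%, against 7.15% of all promoters). Shares of the members count genes, while shares of all promoters count promoters. A match describes letters only and shows no binding in these cells.

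The induced miRNA itself pairs with targets through its seed, bases 2 to 8, shown in capitals in the mature RefSeq sequence (GRCm38.p6, chr6:124718324-124718346, minus strand).
mmu-miR-200c-3p: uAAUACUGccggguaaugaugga
The 7 bases that pair with this seed, CAGTATT, were searched in the longest annotated 3′ UTR of each gene. They were found in 2 of 36 synthetase genes, or 5.56%, and in 16.9% of the 10809 genes tested that have an annotated 3′ UTR. Both genes were mitochondrial, Iars2 on chromosome 1 and Wars2 on chromosome 3, and the count was the same when any annotated 3′ UTR of a gene was allowed. The shares were not corrected for UTR length, which ran from 67 bases for Vars to 9470 bases for Mars2 among the members. They therefore do not show whether the family holds fewer sites than its lengths allow. The 3 sites are shown with their neighbouring bases.
Iars2, base 344 of its 3′ UTR: cttttttgactCAGTATTtaagctctatg
Wars2, base 242 of its 3′ UTR: gcttgcttgtgCAGTATTtactgtgcagg
Wars2, base 969 of its 3′ UTR: tctaaacattcCAGTATTcagtttggata
Neither gene passed the test, and both had fitted changes above 0. Iars2 measured 30.4, 31.7 and 29.4 FPKM without Dox and 31.4, 34.1 and 32.3 FPKM with Dox (log2 fold change 0.10, adjusted p = 0.304). Wars2, the tryptophan enzyme, measured 7.45, 8.70 and 6.13 FPKM without Dox and 9.94, 7.43 and 8.32 FPKM with Dox (0.21, adjusted p = 0.449). Over all genes tested with such a site the median log2 fold change was -0.05. The 7 letters are not in the annotated 3′ UTRs of Iars, Vars or Sars.

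The scaffold proteins of the complex and the elongation factor eEF1, which receives the charged tRNA, make up a list of 7 genes. Of these, 1 was called (14.3%, against 7.06% of all genes tested that rose). Eef1e1, a small scaffold protein of the complex also known as AIMP3, rose from 48.9, 47.6 and 53.0 FPKM to 56.0, 58.6 and 58.2 FPKM (log2 fold change 0.21, adjusted p = 0.0397). It passed in 6 of 15 alternative analyses, and the adjusted p was 0.103 and 0.111 without the first and second no Dox library and 0.0705, 0.118 and 0.119 without Dox libraries 1, 2 and 3. Aimp2 was at 0.13 (adjusted p = 0.0653) and Aimp1 at 0.12 (adjusted p = 0.362). The subunits of eEF1 lay between -0.02 and 0.02.

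Genes that prepare tRNA were counted next. Of 17 genes for tRNA maturation, export and proofreading, 0 passed in the limma analysis, 2 were higher and 1 lower at an unadjusted p under 0.05, and their median log2 fold change was -0.01. The export factor Xpot measured 53.5, 53.0 and 57.9 FPKM without Dox and 50.6, 52.0 and 53.6 FPKM with Dox (-0.07, adjusted p = 0.397). Of 13 factors for mitochondrial charging and translation, such as Mtfmt and Tufm, 0 passed, 2 were higher and 0 lower at an unadjusted p under 0.05, and the median was 0.06. Among all genes tested, 7.06% rose and 7.97% fell at the adjusted threshold, and 14.5% and 14.7% at the unadjusted one. The unmoderated linear model called 0 genes in both lists.

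Genes that supply amino acids were counted in the same way. Of 13 enzymes of amino acid synthesis, 7 rose (53.8%, against 7.06% of all genes tested) and 0 fell, with a median log2 fold change of 0.19. The list was drawn up with earlier results of these data known, so its count is no independent evidence. Gpt2, which makes alanine in the mitochondrion, rose from 39.7, 36.9 and 36.2 FPKM to 51.8, 53.2 and 57.3 FPKM (0.52, adjusted p = 0.00178). Aldh18a1 and Pycr1, at the start and the end of proline synthesis, were at 0.29 (adjusted p = 0.00377) and 0.25 (adjusted p = 0.0242), and Mthfd2, of mitochondrial folate metabolism, was at 0.27 (adjusted p = 0.00235). Asns, the asparagine synthetase that is widely used as a readout of ATF4, measured 253, 252 and 258 FPKM without Dox and 273, 277 and 273 FPKM with Dox. Its log2 fold change of 0.11 had an adjusted p of 0.0351, which was above 0.05 whichever library was left out (0.0547 to 0.107). The list count was 4 without the first no Dox library and 3 without the third Dox library.

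Of 10 amino acid transporters tested, 2 rose (20.0%) and 1 fell (10.0%), against 7.06% and 7.97% of all genes tested. Slc1a5, which carries glutamine, was at 0.41 (adjusted p = 0.0350), Slc38a1, another carrier of glutamine and other neutral amino acids, was at 0.31 (adjusted p = 0.00402), and Slc7a6, which exchanges cationic for neutral amino acids, fell by 0.34 on the log2 scale (adjusted p = 0.0103). Of 15 regulators of the stress response tested, 3 rose (20.0%) and 0 fell. All Dox values lay above all no Dox values in 8 of the 15 and below them in 1, against 17.4% and 17.6% of all genes tested. The 1 below was Ddit3, which did not pass (-0.17, adjusted p = 0.0629). Atf4 itself measured 343, 335 and 346 FPKM without Dox and 379, 381 and 384 FPKM with Dox (0.16, adjusted p = 0.00829, and 0.0542 without the variance trend). Ppp1r15a, which restores translation after stress, was at 0.51 (adjusted p = 0.0165), and Trib3, an ATF4 target that restrains it, was at 0.28 (adjusted p = 0.0179). ATF4 is controlled mainly by translation, which mRNA levels do not show. Of 6 growth regulators tested, which include Myc and Mtor, 1 rose (16.7%), the translation repressor Eif4ebp1, at 0.10 (adjusted p = 0.0488), and this call was lost whichever library was left out.

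**Figure D5:**
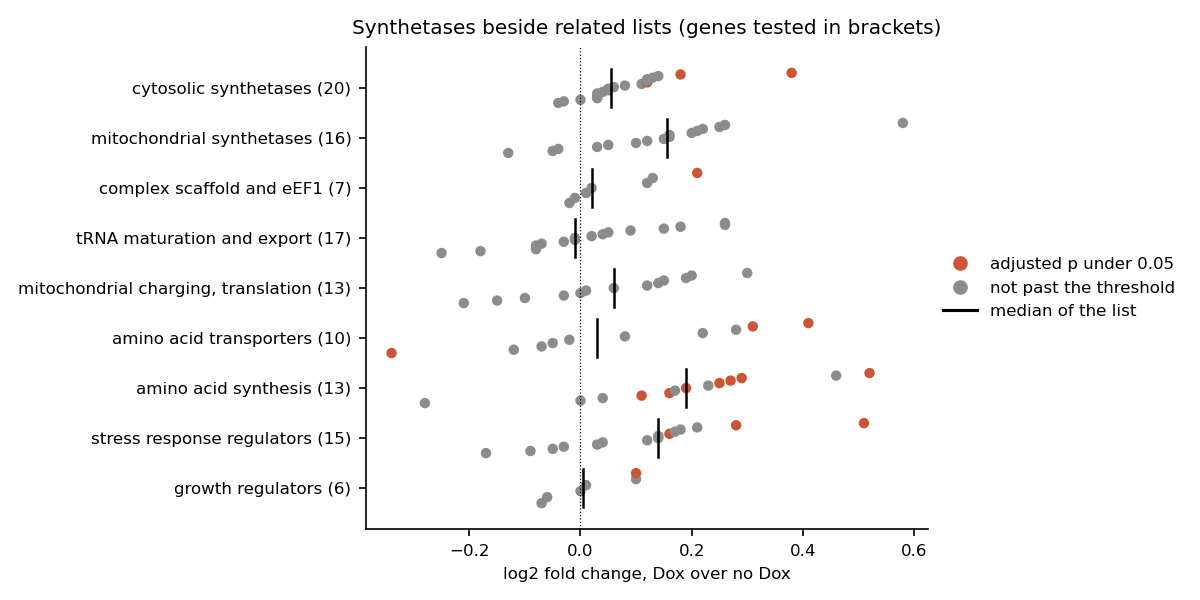
Each point is the log2 fold change (Dox over no Dox, x axis) of 1 gene tested, by list (rows, with the number of genes tested); orange points are past the threshold and the black bars are list medians. The 20 cytosolic synthetases are gathered between -0.04 and 0.38 with a median of 0.06, and the list of amino acid synthesis enzymes holds 7 orange points among its 13 genes.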

How the data were processed

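RNA libraries of Met-1 TripZ-200c cells were made with a stranded TruSeq kit and sequenced as single 50-base reads. The authors mapped them with gSNAP to GRCm38.p6 and deposited FPKM values from Cufflinks for each gene and library, beside group means, fold changes, p-values and q-values, which were not used. Versions and the strand setting are not given in the sources used here.

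For repeated identifiers the row with the higher mean was kept (63 of 43611 rows dropped), and the placeholder 999999999 (6 values in 4 genes) was set to missing. Genes averaging 1 FPKM or more were compared on log2(FPKM + 0.1), which understates changes of low genes, with limma 3.58.1 in R 4.3.3 (trend, group as the only term, Benjamini-Hochberg over all 12879 genes, threshold 0.05). Python 3.11.15, pandas 2.3.3 and BLAST 2.17.0 (95% identity, at least 50 bases) served for sequences, with GENCODE M21 for positions. The members and lists were chosen with earlier results of these data known. All members are named, with values per library for those past or nearest the threshold, and of each list the called genes with the largest changes, at most 4, plus Atf4, Asns, Xpot, Aimp1, Aimp2 and Eef1e1. Non-coding companions of Lars2 and pairs shown by library were chosen after values were seen. Some items are not reported here.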

Additional observations from a re-analysis of the deposited data

How the results depend on the processing

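Results were recomputed with the replicate number as a block, without each library, with median scaling, with quantile normalization, without the variance trend, with pseudocounts of 1 or 0.01, with 1 unmoderated linear model per gene (on log2(FPKM + 1)), and with a filter at 5 FPKM or none. The replicate numbers did not pair the libraries, since same-numbered deviations correlated at 0.0287, 0.0359 and -0.00759. With the replicate block 1337 genes were called in place of 1935, of which 1269 were shared, and Iars and Vars were the synthetases among them. Iars passed in all 15 alternatives. Omitting libraries gave 1048 to 1359 calls over all genes. The cytosolic genes called higher were 3, but 1 without the trend and 1 to 3 with a library omitted, and the mitochondrial genes were 0, but 2 without the trend (Aars2, Ears2), 2 in the unmoderated model (Aars2, Mars2) and 0 to 1 with a library omitted. The scaffold and eEF1 list went from 1 to 0 with no filter, without the trend, in the unmoderated model and with the replicate block, and to 0 to 1 with a library omitted. The tRNA maturation list and the mitochondrial factors each ran from 0 to 1 with a library omitted. The synthesis enzymes went from 7 to 3 without the trend, 4 with the replicate block and 3 to 5 with a library omitted. The growth list went from 1 to 0 with no filter, quantile normalization, no trend, the replicate block and with any library omitted. The median of the mitochondrial genes, 0.16, ran from 0.10 (without the third no Dox library) to 0.16 with a library omitted. Signs turned for Eprs (0.00128 with median scaling; -0.01 to 0.01 with a library omitted) and, with a library omitted, for Dars (-0.10 to 0.00187), Nars2 (-0.02 to 0.10), Rars2 (-0.11 to 0.01), Sars2 (-0.12 to 0.05) and Vars2 (-0.07 to 0.19), none of which was called. The cause was not tested. Absolute depth is unknown, and the low levels and wide errors of the mitochondrial genes limit what could be called.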
